A study of Oryza sativa with 6 samples.

Results

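Among the genes measured in the roots of the rice cultivars HHZ and 9311, 55 divided the 6 libraries in a way that crossed the cultivars. At each of them HHZ replicate 3 stood together with 9311 replicates 1 and 2, and HHZ replicates 1 and 2 stood together with 9311 replicate 3. The first 3 libraries are called set A here and the other 3 set B. Neither set is a group of the study, and no label gives anything that the libraries of a set share. The genes were selected by their values in these libraries. CPM, the reads of a gene scaled to 1000000 reads counted in the library, was taken from the column totals, and 0.5 was added to it. A gene with a mean of at least 5 CPM was kept when its lowest value in one set was at least 2 times its highest value in the other. Of the 36844 genes counted, 15828 had this mean and 55 met the rule, 50 higher in set A (0.316%) and 5 higher in set B (0.0316%). All 6 libraries were used to choose them, so no library remains that could test the separation, and the values are given as a description.

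Both cultivars are elite rice lines grown in hydroponic culture. The roots of both were taken from plants of 50 days after germination that had spent 2 days in solution free of NH4NO3 and 3 h back in solution with 1 mM NH4NO3. There were 3 libraries of each cultivar, and nothing in the labels says how the plants of the replicates were separated, so the spread between them may be partly technical. Roots take up nitrate and ammonium through transporters in the plasma membrane. Nitrate is reduced to nitrite and then to ammonium, which is built into glutamine and glutamate, and many genes of these steps respond to resupply within hours.

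The identifiers give a chromosome number and an order along it, but no name. None of the 55 genes could be paired with a name, a product or a sequence, since the reference gene table matched 1 identifier of the count table and 0 members. They are therefore described by identifier, level and position only. For nitrogen metabolism, the text of the study prints identifiers for some genes and gives the others by name only. The printed identifiers were compared with the members, and 0 of these 5 were members. The genes given by name could not be looked up, so whether any of them is a member is not known.

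The libraries held 16622441 to 22646162 reads on genes, and the range of set A (20705866 to 22646162) overlapped that of set B (16622441 to 21421023). At these totals 3 reads correspond to 0.132 to 0.180 CPM. Among the HHZ libraries replicate 3 was the most distant: the chi-square divided by its degrees of freedom was 89.1 and 104 against the others and 23.3 between replicates 1 and 2. In 9311 the same measure was 43.0 and 45.3 between replicate 3 and the others and 30.0 between replicates 1 and 2. Measures of composition also divided by set. The 100 genes with the most reads took 17.0% to 20.4% of a library in set A and 14.6% to 16.4% in set B. In every library they include Os11g0428800, a member chosen by the rule. It had 8135 CPM in HHZ replicate 3, the library at 17.0%, and 990 CPM in 9311 replicate 3, the library at 16.4%. This share is therefore not independent of the rule, and whether it divides by set without that gene was not computed. The TMM factors, which edgeR uses to scale libraries for composition, were 0.919 to 0.960 in set A and 1.03 to 1.10 in set B. Their part in the separation of the members was not tested.

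Much smaller separations of the sets were common and depended on the scaling. With CPM from column totals, the sets did not overlap at 763 genes higher in set A (4.82% of 15828) and at 3886 genes higher in set B (24.6%). With TMM scaling, the numbers were 1861 (11.8%) and 1344 (8.49%). How many genes another division of the libraries would separate was not computed, so nothing particular to these sets is read from the shares. At a ratio of 2, more genes were higher in set A than in set B under both scalings. TMM scaling gave 66 genes higher in set A, among them all 50 members, and 1 higher in set B, Os12g0503000. The other 4 members of set B had ratios of 1.77 to 1.96 with TMM scaling, so their membership rests on column totals.

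The 50 members higher in set A were high in the same libraries of both cultivars. Their median was 59.6 CPM in HHZ replicate 3, 64.9 CPM in 9311 replicate 1 and 49.1 CPM in 9311 replicate 2. In set B it was 4.68 and 4.95 CPM in HHZ replicates 1 and 2 and 13.1 CPM in 9311 replicate 3. These medians were thus near one another in set A, while in set B that of the 9311 library lay above those of both HHZ libraries. Single members could differ far more within a set, as described below. The ratio that defines a member ranged from 2.00 to 5.90 with a median of 2.58, and 19 of the 50 reached 3. From the lowest to the highest library, a member spanned 3.13 to 209 times, with a median of 13.7. The mean level was at least 20 CPM for 36 of them and at least 100 CPM for 6.

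**Figure D1:**
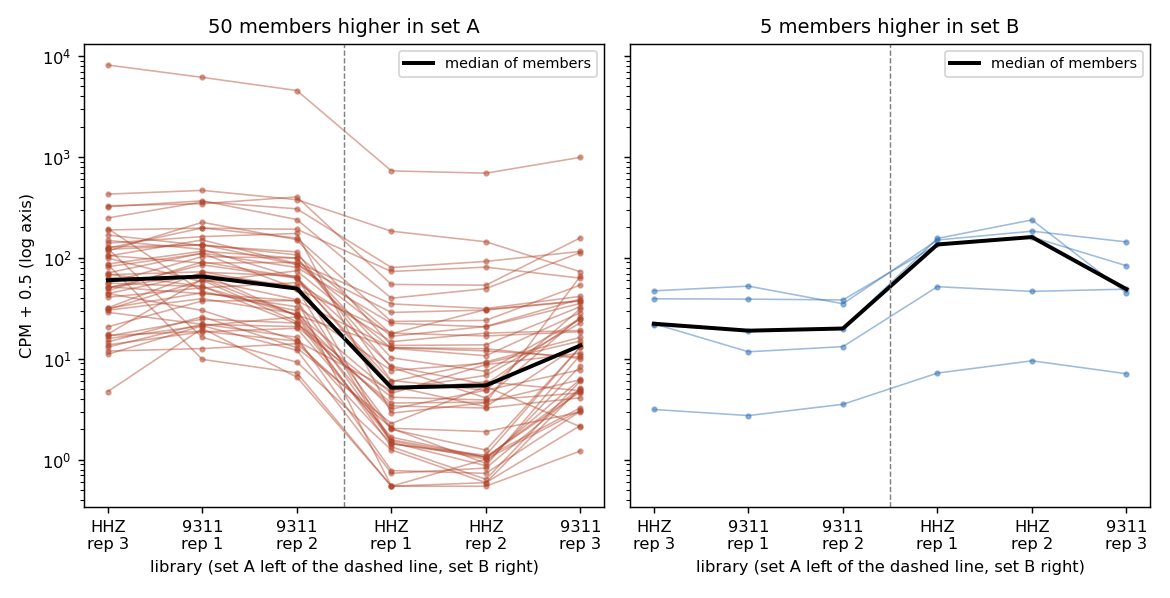
CPM + 0.5 on a log axis for each of the 55 members (thin lines) in each library, with set A left and set B right of the dashed line; the black line is the median of the members. The 50 members of the left panel drop from medians of 49.1 to 64.9 CPM in set A to 4.68 to 13.1 CPM in set B, and the 5 members of the right panel rise.

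The division was wider in HHZ than in 9311. In HHZ, replicate 3 lay 2.27 to 123 times above the nearer of replicates 1 and 2, with a median of 7.80. In 9311, the lower of replicates 1 and 2 lay 2.02 to 7.50 times above replicate 3, with a median of 3.48. The HHZ ratio was the larger at 44 of the 50 members. It reached 20 at 12 of them. For these counts no share over all genes was computed, so nothing particular to the members is read from them.

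A member had to be divided by at least 2 in each cultivar, so the numbers of genes that were divided within a single cultivar give the setting. In HHZ, replicate 3 was at least 2 times above both other replicates at 725 genes (4.58% of 15828) and at least 2 times below both at 605 (3.82%). In 9311, replicates 1 and 2 were both at least 2 times above replicate 3 at 161 genes (1.02%) and below it at 174 (1.10%). Within each cultivar the numbers of the 2 directions were of similar size.

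The lists of the cultivars met mainly in one direction. Of the 725 genes high in HHZ replicate 3, 105 were also high in 9311 replicates 1 and 2, which is 14.5% of the HHZ list and 65.2% of the 161 genes of 9311. In the opposite arrangement, 38 of the 725 were low in 9311 replicates 1 and 2, 5.24% of the HHZ list and 21.8% of the 174 genes. Of the 605 genes low in HHZ replicate 3, 13 were low in 9311 replicates 1 and 2 (2.15% and 7.47%), and 12 were high there (1.98% and 7.45%). The 50 members higher in set A are among the 105, and the 5 higher in set B are among the 13. At the remaining genes of these overlaps the levels of the cultivars differed too much for the sets to stand at least 2 times apart. The sets themselves were found with these values in view, so the overlaps are given with no test.

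**Figure D2:**
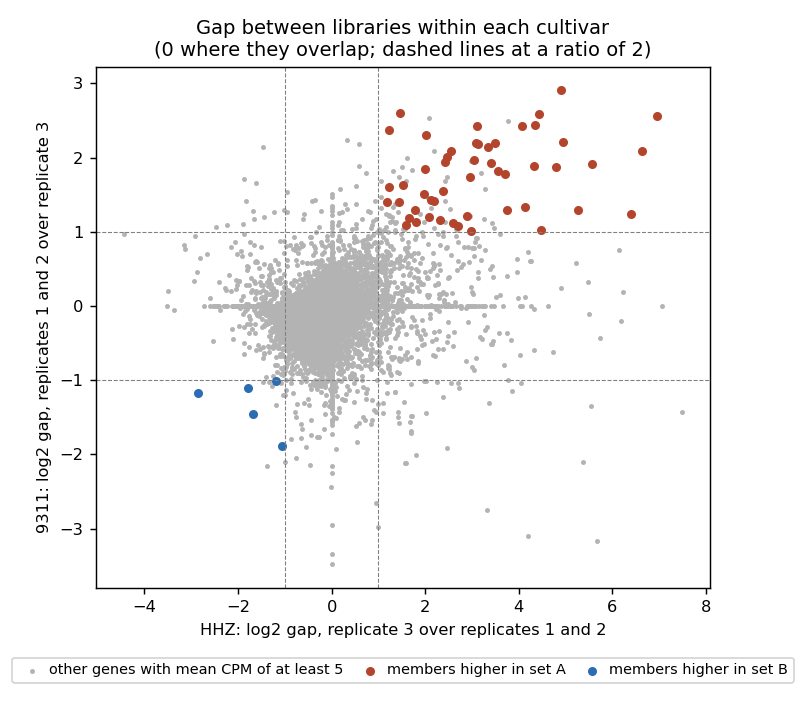
Each point is 1 of 15828 genes, with the log2 gap between replicate 3 and the other replicates of HHZ on the horizontal axis and between replicates 1 and 2 and replicate 3 of 9311 on the vertical axis, 0 where libraries overlap and dashed lines at a ratio of 2. The 50 red members lie in the upper right corner and the 5 blue ones in the lower left, and the red ones reach farther along the HHZ axis.

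Os02g0811400 had the largest ratio among all members, 5.90. It had 195 CPM in HHZ replicate 3, 45.9 CPM in 9311 replicate 1 and 29.4 CPM in 9311 replicate 2, against 1.08, 0.560 and 4.57 CPM in HHZ replicates 1 and 2 and 9311 replicate 3. The level of set B rested on 23, 12 and 76 reads. The gene was close to undetected in one part of the HHZ libraries and well expressed in the other, with 9311 between them on both sides. Os08g0545500 was next, with a ratio of 5.42. Its levels were 68.7 CPM in HHZ replicate 3, 51.7 and 21.8 CPM in 9311 replicates 1 and 2, 2.91 and 2.75 CPM in HHZ replicates 1 and 2, and 3.61 CPM in 9311 replicate 3. Here the 3 libraries of set B were close to one another, and the division was 20.3 times in HHZ and 5.42 times in 9311.

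Os11g0428800 was singled out after its values were seen, because it took the most reads of all members. It had 8135 CPM in HHZ replicate 3, 6139.7 CPM in 9311 replicate 1 and 4548 CPM in 9311 replicate 2. In set B it had 727 and 690.1 CPM in HHZ replicates 1 and 2 and 990.3 CPM in 9311 replicate 3. By number of reads it ranked 2, 7 and 11 in the libraries of set A and 92, 94 and 61 in HHZ replicates 1 and 2 and 9311 replicate 3. The gene was counted with 14783 to 184231 reads per library, so counting error is small against its ratio of 4.59. The division was 11.2 times in HHZ and 4.59 times in 9311.

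The reads of this gene weigh heavily on any sum over the members. All 50 members together took 1.25% of HHZ replicate 3, 1.10% of 9311 replicate 1 and 0.836% of 9311 replicate 2, against 0.147% and 0.143% of HHZ replicates 1 and 2 and 0.223% of 9311 replicate 3. Without Os11g0428800 the summed level was 4348, 4833 and 3807 CPM in these 3 libraries of set A. In set B it was 743 and 744 CPM in HHZ and 1239 CPM in 9311. The rule itself keeps the sums of the sets apart. The order within set A, which it does not fix, changed, with HHZ replicate 3 first with it and 9311 replicate 1 first without it.

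**Figure D3:**
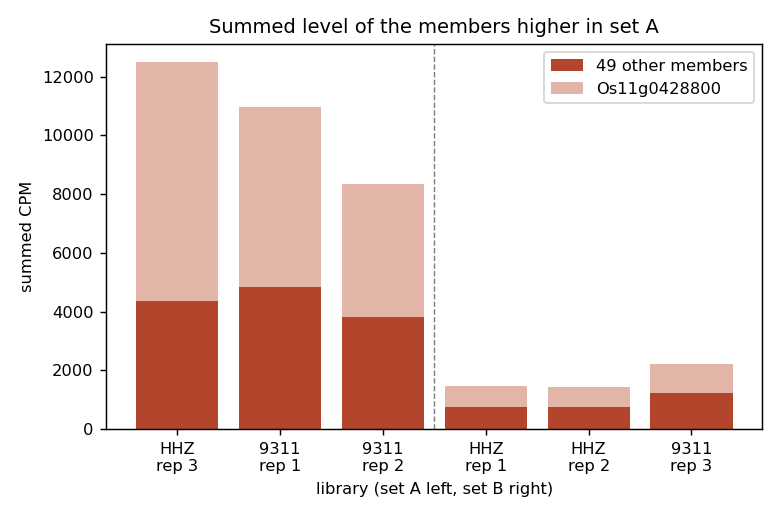
Summed CPM of the 50 members higher in set A in each library, with Os11g0428800 as the pale part of each bar and the other members as the dark part. The dark part is 3807 to 4833 CPM in set A and 743 to 1239 CPM in set B.

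The order of the libraries within the sets was not the same at every member. The highest of all libraries was 9311 replicate 1 at 29 members, HHZ replicate 3 at 14 and 9311 replicate 2 at 7. Within 9311, replicate 1 was above replicate 2 at 41 of the 50. The share of all genes with this order was not computed, so nothing particular to the members is read from it. In set B, 9311 replicate 3 was above both HHZ libraries at 44 members, against 31.8% of the 15828 genes, and below both at 6, against 47.8%. It was at least 2 times above both at 26 members, against 3.92% of those genes. It therefore stood between the HHZ libraries of set B and set A at most members. The rule chose the members by these same values and keeps genes that vary between libraries, so the shares are a description only. The lowest library was HHZ replicate 2 at 26 members, HHZ replicate 1 at 18 and 9311 replicate 3 at 6.

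At 23 of the 50 members, the 9311 libraries were above the HHZ libraries within set A and within set B, against 16.5% of the 15828 genes. Each of these orders rests on 1 library of a cultivar, HHZ replicate 3 in set A and 9311 replicate 3 in set B, and was not tested. The rule chose the members by these values too. The examples that follow were chosen after their values were seen. Os11g0514500 had 2.40 and 3.17 CPM in HHZ replicates 1 and 2 but 65.5 CPM in 9311 replicate 3, and 140 CPM in HHZ replicate 3 against 162 and 174 CPM in 9311 replicates 1 and 2. The cultivars thus lay 18.0 times apart within set B by the rule's values and close together within set A. Os04g0612700 had 0.0470 and 0.0934 CPM (1 and 2 reads) in HHZ replicates 1 and 2 and 4.63 CPM in 9311 replicate 3. Its levels in set A were 17.1 CPM in HHZ replicate 3 and 61.0 and 38.0 CPM in 9311 replicates 1 and 2. It was 1 of 2 members, with Os09g0323500, at which both 9311 libraries of set A were at least 2 times above HHZ replicate 3, against 3.96% of the 15828 genes. Os09g0323500 had 31.5 CPM in HHZ replicate 3, 71.7 and 65.6 CPM in 9311 replicates 1 and 2, 0.987 and 0.373 CPM in HHZ replicates 1 and 2, and 10.5 CPM in 9311 replicate 3. The reads of both cultivars were aligned to one reference, so a lower level in a cultivar as a whole can also be a loss of alignment, which was not tested. At the genes named here, HHZ replicates 1 and 2 were lowest, and HHZ replicate 3 had 140, 17.1 and 31.5 CPM in turn. The latter are values of 1 library at genes chosen after their values were seen, so nothing about alignment is read from them.

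The opposite arrangement was found at 3 members, where HHZ replicate 3 was at least 2 times above both 9311 libraries of set A, against 4.38% of the 15828 genes. All 3 carry identifiers of chromosome 2. Os02g0811400, described above, was 4.20 times higher in HHZ replicate 3 than in the higher of the 9311 libraries. For Os02g0808800 this factor was 7.61, with 123 CPM in HHZ replicate 3 and 15.8 and 8.79 CPM in 9311 replicates 1 and 2. In set B, Os02g0808800 had 0.752 and 0.0934 CPM in HHZ and 1.68 CPM in 9311. Os02g0811800 had a factor of 8.71, with 85.4 CPM in HHZ replicate 3 and 9.36 and 6.76 CPM in 9311 replicates 1 and 2. In set B, Os02g0811800 had 0.0470 and 0.514 CPM in HHZ (1 and 11 reads) and 2.59 CPM in 9311. The 3 genes also had the largest ratios within HHZ of all members, 84.7 to 123.

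**Figure D4:**
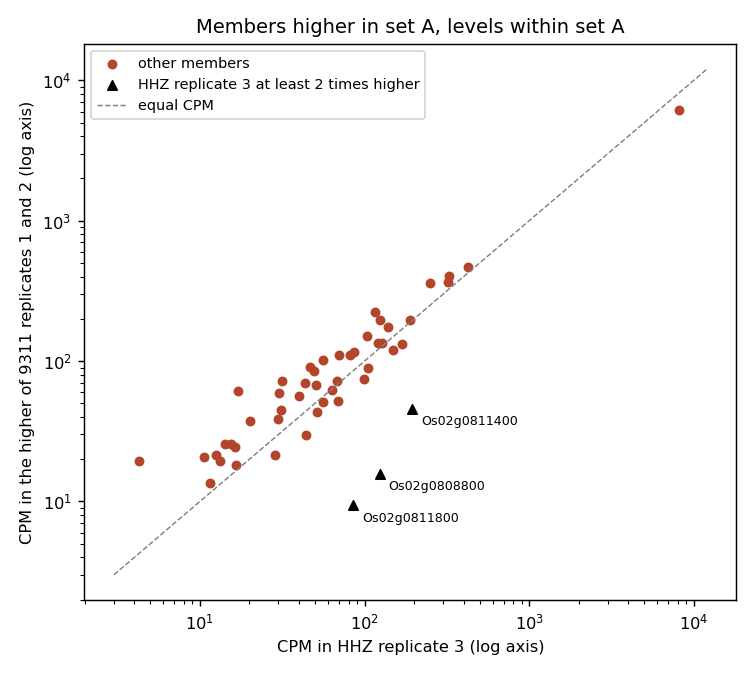
CPM of the 50 members higher in set A, in HHZ replicate 3 (horizontal) and in the higher of 9311 replicates 1 and 2 (vertical), both on log axes; the dashed line marks equal CPM. Most members lie near the line, and the 3 triangles, all on chromosome 2, have HHZ replicate 3 at 85.4 to 195 CPM and 9311 at 9.36 to 45.9 CPM.

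By their rows in the count table, Os02g0808800 and Os02g0811400 were 18 rows apart and Os02g0811400 and Os02g0811800 were 6 rows apart. Between the first 2 lay 11 genes with a mean of at least 5 CPM, and 1 of these was separated by set in the same direction at any ratio. The division was thus not shared by the whole stretch. In total, 14 of the 50 members had another member within 20 rows on the same chromosome, in 8 pairs of successive members. How many such pairs other lists of genes would hold was not computed, so nothing is read from this number. Os07g0673200 and Os07g0673400 were next to each other, with Os07g0674800 15 rows on. Os05g0469600 and Os05g0469800 were 2 rows apart and had the same order of the libraries. At 3 reads for Os05g0469600 and 12 for Os05g0469800 they were furthest apart in HHZ replicate 2. The former had 15.4 CPM in HHZ replicate 3, 20.8 and 25.5 CPM in 9311 replicates 1 and 2, 0.846 and 0.140 CPM in HHZ replicates 1 and 2 and 5.53 CPM in 9311 replicate 3. The latter had 13.2, 18.0 and 19.6 CPM in the libraries of set A in the same order and 1.18, 0.560 and 4.21 CPM in those of set B. Os09g0483100 and Os09g0483500 were 5 rows apart, Os03g0765500 and Os03g0766600 were 8, and Os01g0508100 and Os01g0511000 were 16. Whether such neighbours are copies that share reads or overlap on opposite strands could not be examined, since the strand setting of the counts is not given and no sequence was used. The members of set A lay on 11 chromosomes, with 0 on chromosome 10. Among these 11, the share of genes with a mean of at least 5 CPM was lowest on chromosome 12, at 0.122% (1 of 819). Chromosome 9 had the highest, 0.607% (5 of 824).

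At 6 members 9311 replicate 3 was the lowest of all libraries. Os01g0511000 had 428 CPM in HHZ replicate 3, 466 and 376 CPM in 9311 replicates 1 and 2, 183 and 144 CPM in HHZ replicates 1 and 2, and 72.3 CPM in 9311 replicate 3. The division of this gene was wider in 9311, at 5.18 times, than in HHZ, at 2.33 times. It was named after its values were seen, as the member with the most reads among these 6.

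The 5 members higher in set B were on chromosomes 1, 2, 10, 11 and 12. Os12g0503000 had the largest ratio among them, 2.74. It had 150 and 183 CPM in HHZ replicates 1 and 2 and 143 CPM in 9311 replicate 3, against 46.6 CPM in HHZ replicate 3 and 52.0 and 34.6 CPM in 9311 replicates 1 and 2. Within each set, the cultivars were close at this gene. Os02g0131800 had a ratio of 2.13, with 135 and 160 CPM in HHZ replicates 1 and 2 and 83.1 CPM in 9311 replicate 3. In set A its levels were nearly the same in both cultivars, at 38.8 CPM in HHZ replicate 3 and 38.5 and 37.8 CPM in 9311 replicates 1 and 2.

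Because they are few, the other 3 are named as well. Os01g0588100 had 155 and 237 CPM in HHZ replicates 1 and 2 and 44.4 CPM in 9311 replicate 3, against 20.9 CPM in HHZ replicate 3 and 18.5 and 19.5 CPM in 9311 replicates 1 and 2. Its division was much wider in HHZ (7.29 times) than in 9311 (2.25 times). Os11g0211800 had the opposite order, 2.09 times in HHZ and 3.71 times in 9311, with 51.3, 46.1 and 48.5 CPM in HHZ replicates 1 and 2 and 9311 replicate 3. In set A it had 21.8 CPM in HHZ replicate 3 and 11.2 and 12.7 CPM in 9311 replicates 1 and 2. Os10g0508700 was low throughout, with 6.72, 9.06 and 6.62 CPM in set B and 2.65, 2.24 and 3.04 CPM in set A, from 50 to 194 reads per library.

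**Figure D5:**
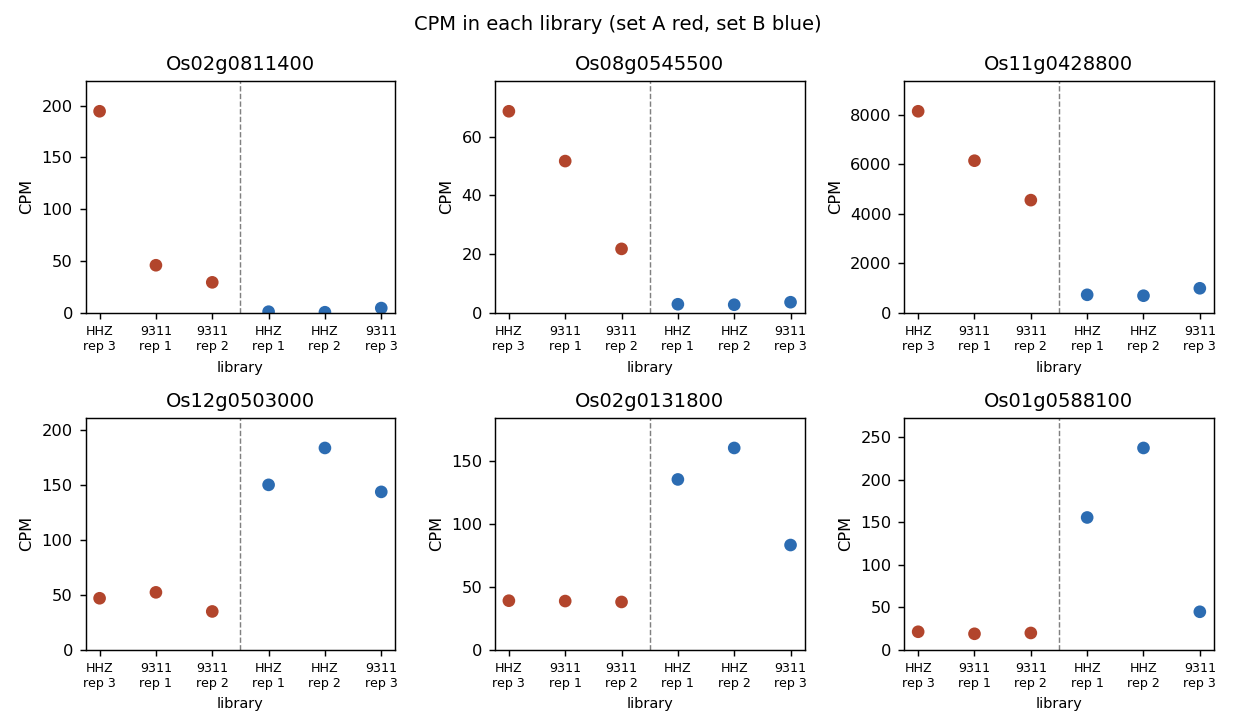
CPM in each library for the 2 members with the largest ratio in set A and Os11g0428800 (top) and the 3 with the largest ratio in set B (bottom), with set A in red and set B in blue on linear axes from 0. The sets do not overlap in any panel, and at Os01g0588100 the 9311 library of set B, at 44.4 CPM, lies far below the HHZ libraries at 155 and 237 CPM.

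The limit of 2 cuts through a continuous range. Just inside it were Os07g0673200, with a ratio of 2.00 in favour of set A, and Os10g0508700, with 2.01 in favour of set B. Just outside were Os08g0152000, with 1.97 in favour of set A, and Os03g0135700, with 1.94 in favour of set B. A further 18 genes with a mean under 5 CPM met the ratio with set A higher and 6 with set B higher, and these are not members.

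The study compared the cultivars, and the same comparison was made for every gene tested with edgeR's quasi-likelihood test on the counts. All 55 members passed its filter on low counts, among 22554 genes. At a Benjamini-Hochberg adjusted p-value under 0.05, edgeR called 0 of the 55, where it called 1468 of all genes (6.51%, with 3.25% higher in 9311 and 3.26% higher in HHZ). The adjusted p-values of the members lay between 0.176 and 0.979 in edgeR. At an unadjusted p under 0.05 it gave 1 member, Os01g0588100, and 21.0% of all genes. Nothing can be read from these counts, since each set holds libraries of both cultivars and the rule makes the cultivars overlap at every member. The log2 fold change (9311 over HHZ) was above 0 for 47 of the 50 members of set A, with a median of 1.02, against -0.01 over all genes tested, and below 0 for all 5 of set B, with a median of -0.62. These directions are tied to the rule too, as set A holds 2 of the 3 libraries of 9311 and 1 of HHZ.

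At the 2 members with the largest ratio in each set, the spread between the replicates of a cultivar was wide. Os02g0811400 had 28.6 ± 22.6 CPM in 9311 and 68.1 ± 117 CPM in HHZ after TMM scaling (SD, n = 3 each), and its log2 fold change was -1.25 with a standard error of 1.92 (edgeR adjusted p = 0.762). For Os08g0545500 the levels were 27.6 ± 26.2 and 25.6 ± 39.8 CPM (SD, n = 3 each), 0.11 apart on the log2 scale with a standard error of 1.44 (edgeR adjusted p = 0.975). Os12g0503000 had 77.7 ± 54.3 CPM in 9311 and 118 ± 62.0 CPM in HHZ (SD, n = 3 each), a log2 difference of -0.61 with a standard error of 0.606 (edgeR adjusted p = 0.625). Os02g0131800 had 54.5 ± 22.8 and 104 ± 56.1 CPM (SD, n = 3 each), a log2 difference of -0.94 with a standard error of 0.505 (edgeR adjusted p = 0.350). None of the 4 passed the threshold with all libraries.

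The fit without HHZ replicate 3 is tied to the rule. It leaves HHZ with libraries of set B only, which the rule placed at least 2 times from 9311 replicates 1 and 2 at every member. EdgeR then called 32 of the 55 members, 30 of set A higher in 9311 and 2 of set B lower, where it called 2724 of all genes (11.9%, with 6.93% higher and 4.94% lower in 9311), and nothing is read from this count either. The log2 fold change of Os02g0811400 turned from -1.25 to 5.22, so its direction between the cultivars is set by 1 library. Without any one of the other 5 libraries edgeR called 0 members. DESeq2, on all libraries, called 1 of the 51 members that received an adjusted p-value, Os01g0588100, at -2.18 on the log2 scale with a standard error of 0.683 (DESeq2 adjusted p = 0.0166), where it called 11.2% of all genes.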

How the data were processed

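Reads were trimmed of adaptors and mapped by the authors with STAR, using the IRGSP-1.0 genome and an annotation from Ensembl Plants. The version given in the submitters' processing notes is STAR 2.5.3a, and those notes also name FastQC, Trim Galore and DESeq2. The paper names a later version of STAR and cutadapt for trimming, so the sources differ. The authors deposited raw counts per gene for each library, neither normalized nor pooled. The strand setting is not given in the sources used here. CPM was computed from column totals (16622441 to 22646162 reads). Members and lists were chosen with earlier results of these data known. The rule was applied with an offset of 0.5, a mean of at least 5 CPM and a ratio of 2, and as fewer than 300 genes passed no cap was needed. No test was run between the sets. For the comparison between cultivars the quasi-likelihood test of edgeR 4.0.16 (R 4.3.3) was used (scaling by TMM, filterByExpr with a minimum count of 10, Benjamini-Hochberg adjustment over all genes, threshold 0.05, cultivar as the only term), with DESeq2 1.42.0 as an alternative. The standard error is the log2 fold change divided by the square root of F. Both steps were run on simulated counts with planted changes. The counts for the rule held counting error only and those for edgeR a fixed spread, so they check the code only. Without names, the rule for named genes gave the 2 members with the largest ratio in each set and those next to the limit, and others were named after their values were seen. The pathway lists by product text could not be applied. Of the identifiers of the count table, 1 was found among 39387 genes of the RefSeq table of ASM3414082v1, so no names, lengths or sequences were used.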

Additional observations from a re-analysis of the deposited data

How the results depend on the processing

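The number of members, 55, was 67 with TMM scaling, 77 with a mean of at least 1 CPM, 40 with at least 20 CPM, 58 with an offset of 0.1 and 48 with an offset of 2. It was 161 at a ratio of 1.5 and 19 at a ratio of 3, by construction. Applied to the HHZ libraries only, the rule gave 1330 genes, and to the 9311 libraries only 335. Without each library in turn it gave 60 to 335 genes, the most without 9311 replicate 3, and 162 without HHZ replicate 3 and 130 without 9311 replicate 2. A rule on fewer libraries is easier to pass.

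The number of genes called between the cultivars, 1468, was 2885 with DESeq2 and 761 to 2724 without each library in turn, the most without HHZ replicate 3. With RLE factors, library totals only and no filter it stayed within 1.5 times. The cause was not tested. Of the members, 0 were called in edgeR, 1 with DESeq2 and 0 to 32 without each library in turn. The 32 were called without HHZ replicate 3, where the rule favours such calls. No label says whether HHZ and 9311 libraries of one replicate number were handled together. Across genes, such libraries deviated from their cultivar means with correlations of -0.117, 0.0846 and -0.126. These values show no clear shared deviation but cannot settle how the libraries were handled. A fit with the replicate block called 470 genes and 0 members, and the log2 fold change of Os02g0811400 turned from -1.25 to 3.60. Without each library in turn that of Os02g0811400 ranged from -1.90 to 5.22 and that of Os08g0545500 from -0.91 to 3.39. The adjusted p-values of these 2 genes ranged from 0.0313 to 0.886 and from 0.0934 to 0.987 over all alternatives in edgeR and DESeq2. Both were lowest without HHZ replicate 3, where the rule favours a contrast. No group has enough libraries for a check of single outliers, and the low levels of members counted with 1 to 12 reads in a library are known only roughly.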
